A study of Homo sapiens with 2 samples.

Results

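RNA sequencing compared 1 sorafenib-resistant culture with 1 untreated parental culture, both labelled HepG2, a liver cancer line. The resistant cells had been selected in sorafenib from 2.5 µM upward in steps of 0.5 µM to 7 µM, and the parental cells received no treatment. Both cultures grew in the same serum-containing medium; the labels do not say whether the resistant culture is 1 clone or whether the drug was present at harvest. The 10 genes described here encode KDR, FLT1, FLT4, PDGFRA, PDGFRB, KIT, FLT3, RET and DDR2, receptor kinases that sorafenib binds, and DDR1, the close relative of DDR2. They were matched by symbol, and all 10 were found among the 50868 genes of the tables.

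Receptor tyrosine kinases sit in the cell membrane, bind a ligand outside the cell and then phosphorylate each other inside it, which recruits adaptors that switch on RAS, RAF and phosphoinositide signalling. KDR, FLT1 and FLT4 are the vascular endothelial growth factor (VEGF) receptors of blood and lymph vessels. PDGFRA and PDGFRB, the platelet-derived growth factor (PDGF) receptors, mark mesenchymal and perivascular cells, among them the stellate cells of the liver. KIT and FLT3 are receptors of blood progenitors and mast cells, and RET is the receptor of the glial cell line-derived neurotrophic factor family. DDR1 and DDR2 differ from the rest in that their ligand is collagen, DDR1 being typical of epithelia and DDR2 of mesenchymal cells. Sorafenib occupies the kinase domain of these receptors, as it does that of the RAF kinases.

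Counts summed to 16811907 in the resistant and 18067146 in the parental library. A count of 0 allows a level of up to 0.179 CPM in the resistant and 0.166 CPM in the parental library, the worth of 3 counts, where CPM is the count relative to library depth, scaled by the TMM (trimmed mean of M values) method. Genes are called measured here if they reached 1 CPM in at least 1 of the libraries. With 1 library per group there is no replicate spread and no test, so each 95% interval covers counting error only. Genes that define the hepatocyte were nearly absent: of 10 such markers 8 had 0 counts in both libraries, ALB and AFP among them, and the list summed to 4 counts in the resistant and 3 in the parental library. The names HepG2, resistant and parental therefore stand only for what the labels say, and the identity of the cells was not tested.

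The start sites of these genes differ in sequence. RefSeq start-site windows of 300 bases (GRCh38.p14; 250 bases before the start and 50 after it) were given for 9 of the 10 members, FLT4 being the one without, and are shown for the measured members and for KIT, a member with no counts. CG dinucleotides, the sites of DNA methylation, are in capitals.
DDR2, first window, chr1:162630613-162630912, plus strand: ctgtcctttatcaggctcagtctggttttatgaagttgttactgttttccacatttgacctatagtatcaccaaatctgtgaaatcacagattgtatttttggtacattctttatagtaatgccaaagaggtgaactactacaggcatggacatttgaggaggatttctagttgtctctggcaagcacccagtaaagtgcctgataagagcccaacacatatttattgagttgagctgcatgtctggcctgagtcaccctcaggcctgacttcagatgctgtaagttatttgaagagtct
DDR2, last window, chr1:162632214-162632513, plus strand: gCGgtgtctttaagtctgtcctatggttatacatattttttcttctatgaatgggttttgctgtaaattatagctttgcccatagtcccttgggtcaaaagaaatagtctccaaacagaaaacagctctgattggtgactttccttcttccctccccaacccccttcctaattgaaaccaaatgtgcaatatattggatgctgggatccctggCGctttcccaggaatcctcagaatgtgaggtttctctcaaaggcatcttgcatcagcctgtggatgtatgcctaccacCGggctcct
PDGFRB, chr5:150155796-150156095, minus strand: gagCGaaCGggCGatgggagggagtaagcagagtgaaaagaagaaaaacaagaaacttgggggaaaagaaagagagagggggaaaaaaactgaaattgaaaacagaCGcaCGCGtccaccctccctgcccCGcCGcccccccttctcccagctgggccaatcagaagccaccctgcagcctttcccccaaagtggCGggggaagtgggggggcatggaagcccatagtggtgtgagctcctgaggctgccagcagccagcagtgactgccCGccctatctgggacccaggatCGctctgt
DDR1, window with the most CG, chr6:30884269-30884568, plus strand: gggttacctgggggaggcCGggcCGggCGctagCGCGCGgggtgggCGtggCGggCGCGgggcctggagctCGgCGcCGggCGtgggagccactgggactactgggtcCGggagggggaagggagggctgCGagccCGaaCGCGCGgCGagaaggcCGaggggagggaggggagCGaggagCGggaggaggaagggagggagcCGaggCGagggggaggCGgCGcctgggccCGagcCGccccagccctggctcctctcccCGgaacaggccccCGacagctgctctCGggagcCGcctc
KIT, chr4:54657707-54658006, plus strand: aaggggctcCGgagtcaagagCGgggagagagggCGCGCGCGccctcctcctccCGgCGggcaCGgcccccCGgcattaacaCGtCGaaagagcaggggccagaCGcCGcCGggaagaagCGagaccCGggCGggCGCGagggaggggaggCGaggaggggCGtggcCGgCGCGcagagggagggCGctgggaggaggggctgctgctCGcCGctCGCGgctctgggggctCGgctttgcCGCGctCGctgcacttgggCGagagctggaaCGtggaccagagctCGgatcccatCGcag

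The 3 windows of DDR2 held 0, 5 and 3 CG dinucleotides. That of PDGFRB held 11, the 8 of DDR1 held between 3 and 34, and that of KIT held 38, against a median of 14 over 35116 RefSeq windows of the same length. Of all windows 3.96% had no CG, as in the first window of DDR2. The other members with windows had at least 1 window rich in CG, with 41 in RET, 34 in FLT3, 33 in FLT1, 32 in PDGFRA and 22 in KDR. No window of DDR2 held more than 5. Of all windows 33.7% held 5 or fewer and 24.5% held 3 or fewer, as windows of DDR1 also did. The AP-1 motif TGANTCA, searched on both strands, was found 1 time in the first DDR2 window and 1 time in a DDR1 window. It was also found 1 time in a window of PDGFRA, a member with 0 counts in both libraries. No PDGFRB window held it, against 7.71% of all windows. The TEAD motif GGAATG was found in 1 DDR1 window and 14.0% of all windows. The RUNX motif TGTGGT was found 1 time in the window of KDR, in no window of DDR1, DDR2 or PDGFRB, and in 13.1% of all windows. These 3 motifs do not overlap in those windows, and a match is a description of letters, not a binding site.

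Of the 10 members 3 were measured, PDGFRB, DDR1 and DDR2, each above 1 CPM in both libraries, and their differences were not alike. DDR2 was 4.08 times as abundant in the resistant as in the parental library, PDGFRB was slightly higher and DDR1 slightly lower. KDR, FLT1, PDGFRA, KIT, FLT3 and RET had 0 counts in both libraries, and FLT4 had 0 in the resistant and 3 in the parental library. The size rule called a gene past it when the log2 ratio of CPM + 1, resistant over parental, was at least 1 or at most -1; 1 member of 3 measured was past it, DDR2, against 2.30% of all 14686 measured genes. With a fold of 1.5 as the threshold DDR2 was again the 1 member past it, against 8.65% of measured genes.

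**Figure D1:**
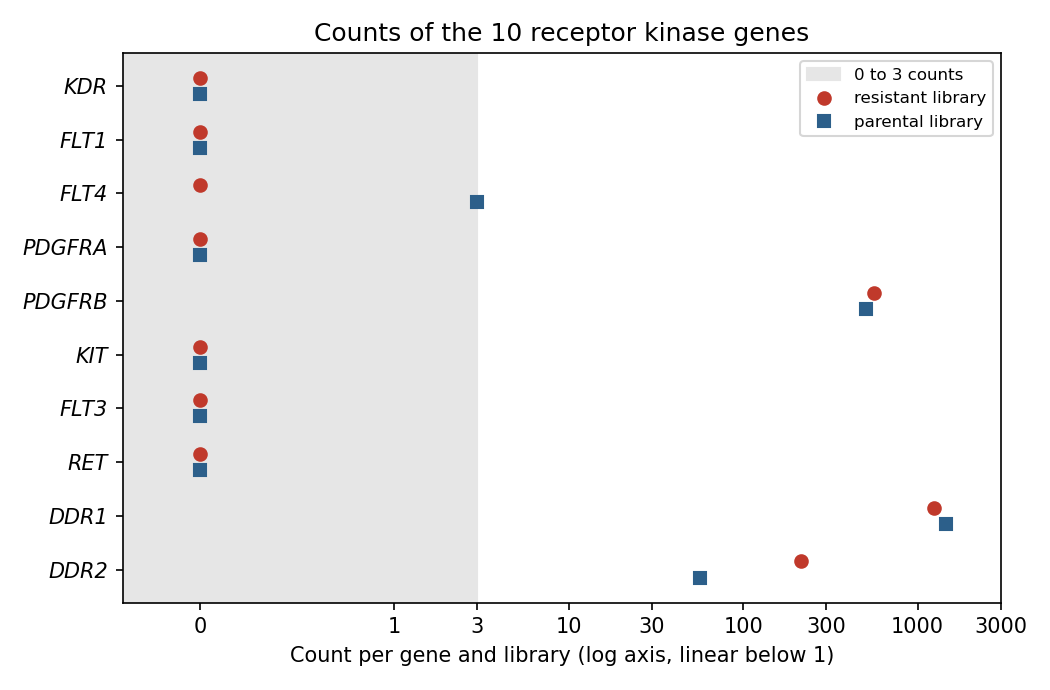
Counts of the 10 genes (x axis, log scale above 1, linear below) in the resistant library (red circles) and the parental library (blue squares); the grey band spans 0 to 3 counts. KDR, FLT1, PDGFRA, KIT, FLT3 and RET sit at 0 in both libraries, FLT4 lies in the band, and DDR2 has 215 counts in the resistant against 57 in the parental library.

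DDR2 (ENSG00000162733; chromosome 1, 162631373 to 162787400, plus strand, GRCh38), the mesenchymal collagen receptor, had 215 counts in the resistant and 57 in the parental library. Its level was 12.8 CPM in resistant and 3.15 CPM in parental cells, a fold of 4.08 (95% interval 3.03 to 5.56). Its log2 ratio of 1.74 ranked 37th from the top among the 14686 measured genes. The lower limit of the interval lies above the fold of 2, so counting error alone does not bring DDR2 within the size rule; variation between cultures is not covered. The log2 fold change of DDR2 in the authors' deposited table was 2.02, and that table called it UP. More RNA per cell and more cells that carry the RNA cannot be told apart in such bulk libraries. Among the genes of the deposited data that GENCODE 29 holds, none has an annotated exon that overlaps DDR2, PDGFRB or DDR1 on either strand. Other genes were not checked for overlap.

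Markers of mural cells and fibroblasts, where DDR2 is typical, were measured for 8 of 12 entries (11 symbols, RGS5 being listed 2 times) and summed to 484 CPM in resistant and 463 CPM in parental cells. Of the 8 measured entries 5 had a positive and 3 a negative log2 ratio. LUM, the lumican gene, was the 1 entry past the size rule, with 216 counts in the resistant and 93 in the parental library (2.51-fold, 1.96 to 3.24). FAP, a fibroblast protease gene, was at 1.34-fold (1.19 to 1.52) with 570 counts in the resistant and 459 in the parental library. The lowest was 1 of the 2 entries of RGS5, a pericyte gene, with 58 counts in the resistant and 91 in the parental library (0.689-fold, 0.487 to 0.968). The other RGS5 entry was at 0.751-fold (0.432 to 1.29) and MCAM at 0.972-fold (0.934 to 1.01). All measured entries not named here had a positive log2 ratio, and the list median was 0.21. COL1A2 and PDPN had 0 counts in both libraries, and THY1 had 1 in the resistant and 2 in the parental library. PDGFRA, a member that is not on this marker list, also had 0 counts in both. The part of such cells in the DDR2 value was not tested.

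DDR1 (ENSG00000204580; chromosome 6, 30876421 to 30900156, plus strand), the epithelial collagen receptor, had 1236 counts in the resistant and 1461 in the parental library, or 73.7 CPM against 80.6 CPM. Its fold was 0.914 (0.847 to 0.987) and its log2 ratio -0.13, inside the band of -0.15 to 0.16 that held the middle 50% of measured genes. DDR2 made up 14.8% of the counts of both collagen receptors in the resistant library (Clopper-Pearson interval 13.0 to 16.8) and 3.75% in the parental library (2.86 to 4.84). Per kilobase of merged annotated exons, resistant cells had 8.08 CPM of DDR1 and 1.20 CPM of DDR2. Parental cells had 8.84 CPM per kilobase of DDR1 and 0.293 CPM per kilobase of DDR2. DDR1 thus remained the more abundant of the pair in both libraries, by 6.76 times in the resistant and 30.1 times in the parental library on that scale. In the deposited FPKM, which takes a greater length for DDR1, the same ratios were 2.94 in the resistant and 13.1 in the parental library.

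PDGFRB (ENSG00000113721; chromosome 5, 150113837 to 150155872, minus strand), a PDGF receptor, had 566 counts in the resistant and 509 in the parental library, or 33.8 CPM against 28.1 CPM. The fold was 1.20 (1.06 to 1.36) and the log2 ratio 0.26, above the middle 50% of measured genes and well within the size rule. CSF1R, the receptor of macrophage colony-stimulating factor and also a sorafenib target, lies 465 bases downstream of PDGFRB on the same strand. It had 223 counts in the resistant and 176 in the parental library and a fold of 1.37 (1.12 to 1.68). Both genes of this pair were therefore detected, with folds whose intervals overlap.

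The order of the measured members by level depends on how gene length is taken. Per kilobase of merged exons the order was DDR1, PDGFRB and DDR2 in both libraries, with PDGFRB at 4.73 CPM per kilobase in resistant and 3.94 CPM per kilobase in parental cells. In the deposited FPKM, DDR1 stood at 3.11 in the resistant and 3.42 in the parental library. PDGFRB stood at 3.33 FPKM in the resistant and 2.78 FPKM in the parental library, so these 2 genes changed places between the libraries on that scale. DDR2 was the lowest on both scales, with 1.06 FPKM in the resistant and 0.262 FPKM in the parental library. The length behind the deposited FPKM was 23618 bases for DDR1, 2.59 times its merged exons, whereas it was 1.42 times for PDGFRB and 1.12 times for DDR2.

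**Figure D2:**
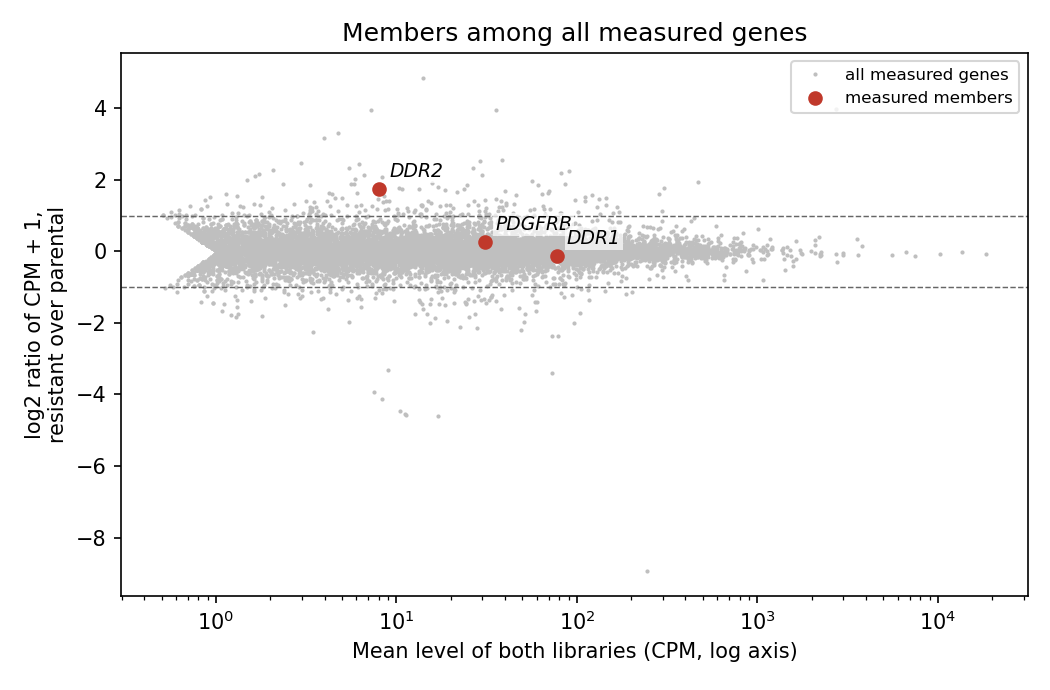
Log2 ratio of CPM + 1, resistant over parental (y axis), against the mean level of both libraries (x axis, CPM, log scale) for all measured genes (grey) and the 3 measured members (red); dashed lines mark the size rule. DDR2 lies above the upper line at 1.74, and PDGFRB and DDR1 lie in the dense band at 0.26 and -0.13.

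The other receptors had no counts to compare. The VEGF receptor genes KDR (ENSG00000128052; chromosome 4, 55078477 to 55125589) and FLT1 (ENSG00000102755; chromosome 13, 28300344 to 28495128) had 0 counts in both libraries. FLT4 (ENSG00000037280; chromosome 5, 180601506 to 180649624), the lymphatic VEGF receptor gene, had 0 counts in the resistant and 3 in the parental library, both at or under the floor, so no fold is given. PDGFRA (ENSG00000134853; chromosome 4, 54229097 to 54298247), KIT (ENSG00000157404; chromosome 4, 54657918 to 54740715), FLT3 (ENSG00000122025; chromosome 13, 28003274 to 28100592) and RET (ENSG00000165731; chromosome 10, 43077027 to 43130351) had 0 in both. At this depth each of the 6 genes at 0 could have been present at up to the floors given above, so a difference below them was not detectable.

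These silent members lie in a few places of the genome. PDGFRA, KIT and KDR follow each other on chromosome 4, with gaps of 359671 and 337762 bases, and FLT3 and FLT1 lie 199752 bases apart on chromosome 13. Their surroundings were not without counts. Within 500 kb, 4 of 6 protein-coding neighbours of KDR were measured, 3 of 8 of FLT1, 3 of 8 of FLT3, 7 of 9 of RET and 5 of 12 of FLT4. For KIT 0 of 3 were measured and for PDGFRA 1 of 4. Other silent members count as neighbours here, which lowers these shares. PDGFRA and KDR are among those of KIT, KIT is among those of PDGFRA and KDR, and FLT3 and FLT1 are neighbours of each other. Among all these neighbours GFPT2 near FLT4 and ZNF485 near RET were past the size rule, both higher in the resistant library, with log2 ratios of 1.23 each. They were 1 of 5 measured neighbours of FLT4 and 1 of 7 of RET, against 2.30% of all measured genes past the rule. Both were low: GFPT2 had 55 counts in the resistant and 15 in the parental library, and ZNF485 had 40 in the resistant and 8 in the parental library.

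The neighbours of DDR2 did not share its difference. Of 12 protein-coding genes within 500 kb 8 were measured and none was past the size rule, their log2 ratios lying between -0.26 and 0.51 with a median of 0.02. HSD17B7, an enzyme gene of cholesterol and steroid synthesis that lies 3302 bases beyond DDR2, had the highest ratio of them, with 443 counts in the resistant and 331 in the parental library (1.45-fold, 1.25 to 1.67). UAP1, a gene of UDP-N-acetylglucosamine synthesis on the other side, had 1630 counts in the resistant and 1730 in the parental library and a log2 ratio of 0.03. UHMK1, a kinase gene, had one of 0.19, NOS1AP 0.0047, C1orf226 -0.04, AL512785.2 0.14, RGS5 -0.26 and NUF2 -0.19. The other RGS5 entry of the marker list, with a log2 ratio of -0.43, was not among these 8 neighbours.

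**Figure D3:**
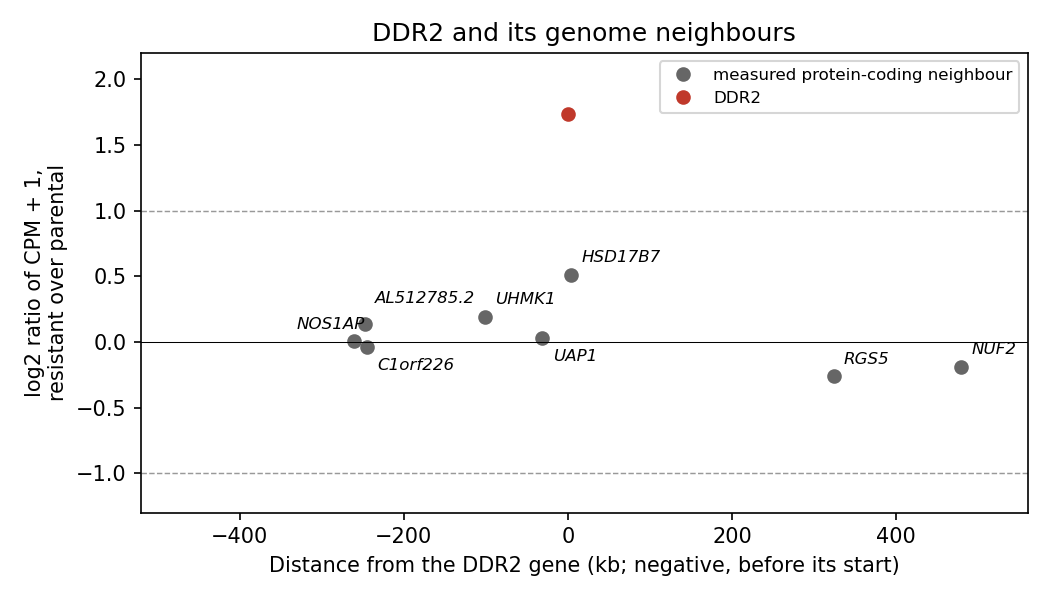
Log2 ratio of CPM + 1, resistant over parental (y axis), of DDR2 (red) and its 8 measured protein-coding neighbours (grey) by distance from the gene (x axis, kb). DDR2 lies at 1.74, whereas the neighbours lie between -0.26 and 0.51; dashed lines mark the size rule.

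The genes closest to DDR2 in level over both libraries were APH1B, a gamma-secretase subunit gene, ZNF394, the actin-crosslinking filamin gene FLNC, the collagen gene COL6A2 and AC087632.2, taken as the 5 measured protein-coding genes at the smallest distance in log2(CPM + 1). The likeness rests on 2 libraries and says no more than that both levels are near. APH1B had 203 counts in the resistant and 67 in the parental library, COL6A2 had 221 and FLNC 181 in the resistant library, against 78 for COL6A2 and 71 for FLNC in the parental library. Their folds were 3.28 for APH1B, 3.06 for COL6A2 and 2.76 for FLNC.

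Among 58 receptor tyrosine kinase genes, the members and 48 others, DDR2 had the highest log2 ratio of the 30 that were measured. The next was EPHB2, an ephrin receptor gene, with 147 counts in the resistant and 83 in the parental library and a log2 ratio of 0.81. The intervals of their folds did not overlap, with 3.03 to 5.56 for DDR2 and 1.45 to 2.54 for EPHB2, which is a statement on counting error only. PDGFRB came 11th and DDR1 22nd in this order. The other receptor tyrosine kinases, 25 measured of 46 without FGFR1 and CSF1R, had a median log2 ratio of 0.11, against -0.0018 over all measured genes. None of them was higher past the size rule and 1 was lower, EPHA10, with 3 counts in the resistant and 28 in the parental library (0.116-fold, 0.0225 to 0.375).

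The members took a small share of the receptor kinase counts. All 10 together had 2017 of 100293 such counts in the resistant library, or 2.01% (1.93 to 2.10), and 2030 of 89086 in the parental library, or 2.28% (2.18 to 2.38). The members' summed level was 120.3 CPM in resistant and 112 CPM in parental cells, so the smaller share does not stand for a lower sum. EGFR held 66939 of the receptor kinase counts in the resistant and 56850 in the parental library. DDR1 made up 61.3% of the members' counts in the resistant and 72.0% in the parental library, while DDR2 made up 10.7% in the resistant and 2.81% in the parental library. Per kilobase of merged exons, DDR1 ranked 11th of the 58 genes in the resistant and 9th in the parental library, PDGFRB 14th in both, and DDR2 21st in the resistant against 26th in the parental library. EGFR was far above all members, at 319 CPM per kilobase in the resistant and 251 CPM per kilobase in the parental library.

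**Figure D4:**
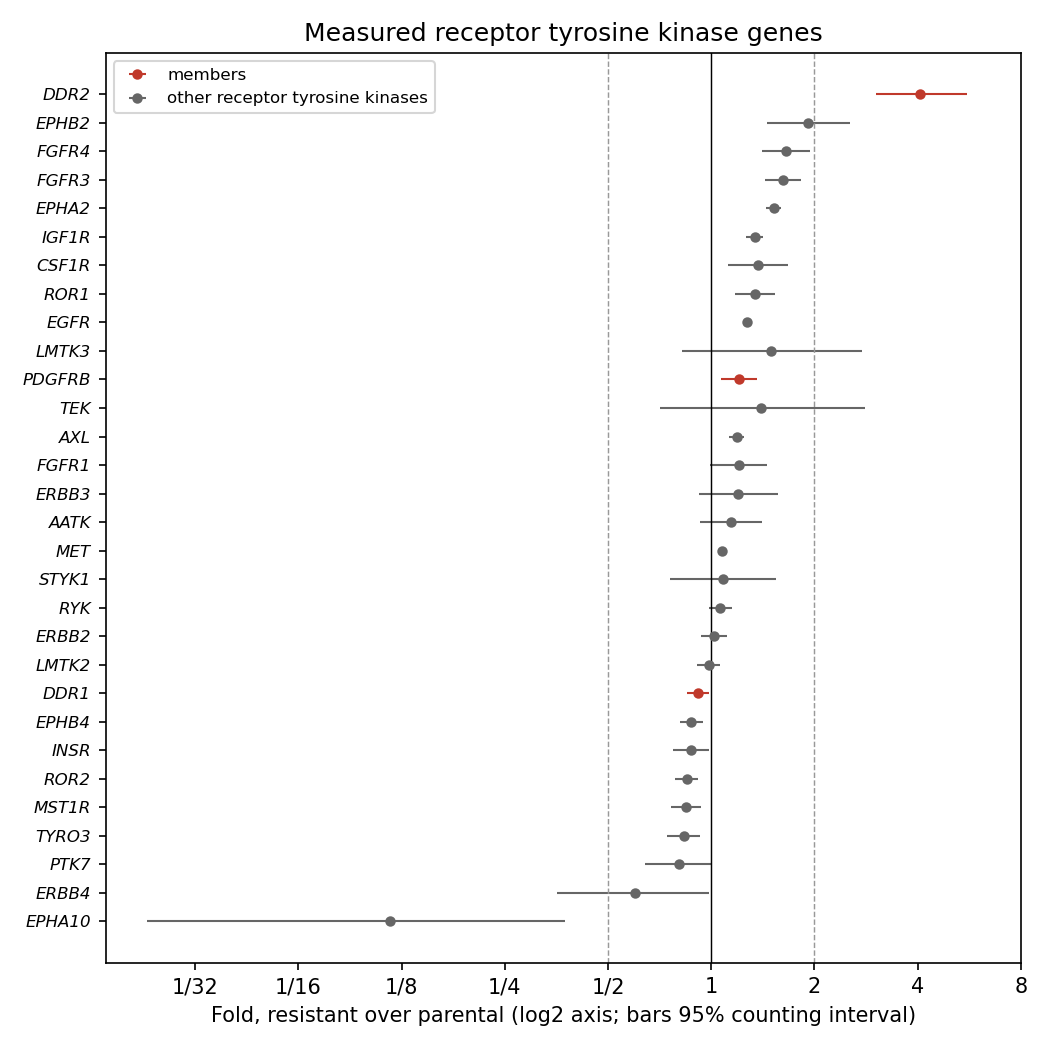
Fold, resistant over parental (x axis, log2 scale), of the 30 measured receptor tyrosine kinase genes in order of their log2 ratio of CPM + 1; bars are 95% counting intervals, red marks the members and grey the others, and dashed lines mark folds of 1/2 and 2. DDR2 at 4.08 is the only gene whose interval lies above 2, and EPHA10 at 0.116 lies below 1/2.

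Ligand genes of the silent receptors ranged from many counts, as for VEGFA and KITLG, to 0 in both libraries, as for VEGFD and GDNF. VEGFA, the main angiogenic ligand of KDR and FLT1, had 4380 counts in the resistant and 6347 in the parental library (0.746-fold, 0.718 to 0.775). VEGFB, a ligand of FLT1, had 572 counts in the resistant and 667 in the parental library (0.927-fold, 0.828 to 1.04). VEGFC, the lymphatic ligand of FLT4, went the other way with 160 counts in the resistant and 109 in the parental library (1.59-fold, 1.24 to 2.04). PGF, another ligand of FLT1, had 13 counts in the resistant and 11 in the parental library. None of the 3 measured VEGF receptor ligands of 5 was past the size rule. Their median log2 ratio was -0.11, and 0.02 with a minimum of 0.5 CPM in place of 1.

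KITLG, the stem cell factor that KIT binds, had 3796 counts in the resistant and 4458 in the parental library (0.920-fold, 0.881 to 0.961), in libraries where KIT itself had none. FLT3LG had 12 counts in the resistant and 22 in the parental library, and CSF1, a ligand of CSF1R, had 106 in the resistant and 87 in the parental library. None of these 3 was past the size rule, and their median log2 ratio was -0.12, against 0.11 with a minimum of 5 CPM. Among ligands of RET complexes GDF15, which signals through the co-receptor GFRAL and RET, was the most abundant with 503 counts in the resistant and 361 in the parental library (1.51-fold, 1.31 to 1.73). PSPN had 24 counts in the resistant and 36 in the parental library, ARTN had 18 in the resistant and 24 in the parental library, and NRTN had 2 in the resistant and 16 in the parental library. The list median was -0.16 over 3 measured genes of 5, none past the size rule; with a minimum of 5 CPM GDF15 alone was left, at 0.57. The co-receptor genes GFRA2, GFRA3, GFRA4 and GFRAL had 0 counts in both libraries, and GFRA1 had 0 in the resistant and 1 in the parental library.

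For PDGFRB, a measured receptor, the ligand genes were measured too. PDGFB, which binds both PDGF receptors, had 419 counts in the resistant and 422 in the parental library (1.07-fold, 0.935 to 1.23). PDGFA had 79 counts in the resistant and 94 in the parental library (0.908-fold, 0.665 to 1.24). Both intervals hold 1, and PDGFC and PDGFD had at most 3 counts in either library. The neuropilins, co-receptors for VEGF and PDGF family ligands, differed in direction: NRP1 was at 1.74-fold (1.29 to 2.37) with 116 counts in the resistant and 72 in the parental library, and NRP2 at 0.734-fold (0.645 to 0.836) with 396 counts in the resistant and 583 in the parental library. Neither was past the size rule.

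Of 11 genes of collagens that DDR1 or DDR2 binds, 7 were measured, 5 with a positive and 2 with a negative log2 ratio. None was past the size rule, and the list does not say which receptor binds each collagen. The median log2 ratio was 0.36 over the measured genes and 0.09 over all 11. COL5A1, which had the most counts, had 12228 in the resistant and 9557 in the parental library (1.38-fold, 1.35 to 1.42). COL5A2 was at 1.55-fold (1.39 to 1.73), COL4A1 at 1.43-fold (1.35 to 1.51) and COL4A2, its basement membrane partner, at 1.28-fold (1.24 to 1.33). COL8A1 was lower, at 0.544-fold (0.407 to 0.721) with 76 counts in the resistant and 151 in the parental library, as was COL3A1, at 0.896-fold (0.855 to 0.939) with 3267 counts in the resistant and 3941 in the parental library. Type I collagen had counts for COL1A1, 2611 in the resistant and 2565 in the parental library, but none for COL1A2.

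Other collagen receptors gave a different picture from DDR2 except for 1 gene. ITGA2, the alpha subunit of a collagen-binding integrin, was past the size rule with 527 counts in the resistant and 268 in the parental library (2.13-fold, 1.83 to 2.47). The remaining measured genes of this list were slightly lower in the resistant library: ITGA1 at 0.852-fold (0.799 to 0.908), ITGB1, the shared beta subunit, at 0.867-fold (0.846 to 0.889), and MRC2, an endocytic collagen receptor gene, at 0.878-fold (0.855 to 0.902). Exons of ITGA1 are shared with PELO, and its value is uncertain for that reason. The list had 4 measured genes of 8 and a median log2 ratio of -0.20.

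Genes reported downstream of DDR2 in the matrix were mixed. RUNX2, a transcription factor of bone and cartilage, was past the size rule with 91 counts in the resistant and 31 in the parental library (3.17-fold, 2.09 to 4.94). MMP14, a membrane-bound collagenase gene, had 28 counts in the resistant and 8 in the parental library (3.78-fold, 1.68 to 9.61), a log2 ratio of 0.89. MMP13, a secreted collagenase gene and a known DDR2 target in cartilage, went the other way with 18 counts in the resistant and 46 in the parental library (0.423-fold, 0.231 to 0.744), and SNAI2, a mesenchymal transcription factor gene, was at 0.738-fold (0.669 to 0.813). The list had 6 measured genes of 8, with 3 positive and 3 negative log2 ratios and a median of 0.08.

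Among adaptors and effectors that these receptors share, 1 of 18 measured genes was past the size rule, GRB2. GRB2, which links phosphorylated receptors to the RAS activator SOS1, had 813 counts in the resistant and 2918 in the parental library (0.301-fold, 0.278 to 0.326). No annotated exon of another gene checked for overlap lies on it. SOS1 was at 0.836-fold (0.794 to 0.881), STAT5B at 1.25-fold (1.20 to 1.31) and GAB2, a docking protein gene, at 1.23-fold (1.13 to 1.35). The list median was -0.0041, with 9 genes positive and 9 negative. Of the whole table, 1.31% of measured genes were higher and 0.994% lower past the size rule.

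Other kinases and enzymes that sorafenib binds differed little. The 7 genes of this list were all measured, none was past the size rule, and the median log2 ratio was 0.15. BRAF was at 1.12-fold (1.02 to 1.22) with 968 counts in the resistant and 938 in the parental library, FGFR1 at 1.20-fold (0.991 to 1.46), and EPHX2, the soluble epoxide hydrolase gene, at 1.29-fold (0.837 to 1.99). The 7 members KDR, FLT1, FLT4, PDGFRA, PDGFRB, KIT and FLT3 share 3 terms of the deposited KEGG annotation, in which DDR1, DDR2 and RET are not listed. Past the size rule, which 2.30% of all measured genes passed, 3 genes were higher and 3 lower of 144 measured in Ras signalling. In MAPK signalling 7 were higher and 3 lower of 211, and in PI3K-Akt signalling 9 were higher and 2 lower of 224. Pathways in cancer and Rap1 signalling have 6 members each. The first had 8 higher and 3 lower of 374, the second 2 higher and 1 lower of 141. Of the terms with 5 members, focal adhesion had 8 higher and 1 lower of 147. Central carbon metabolism in cancer had 0 higher and 1 lower of 52. Of the terms with 3 members, EGFR tyrosine kinase inhibitor resistance had 3 higher and 1 lower of 64. Phospholipase D signalling had 3 higher and 1 lower of 98.

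**Figure D5:**
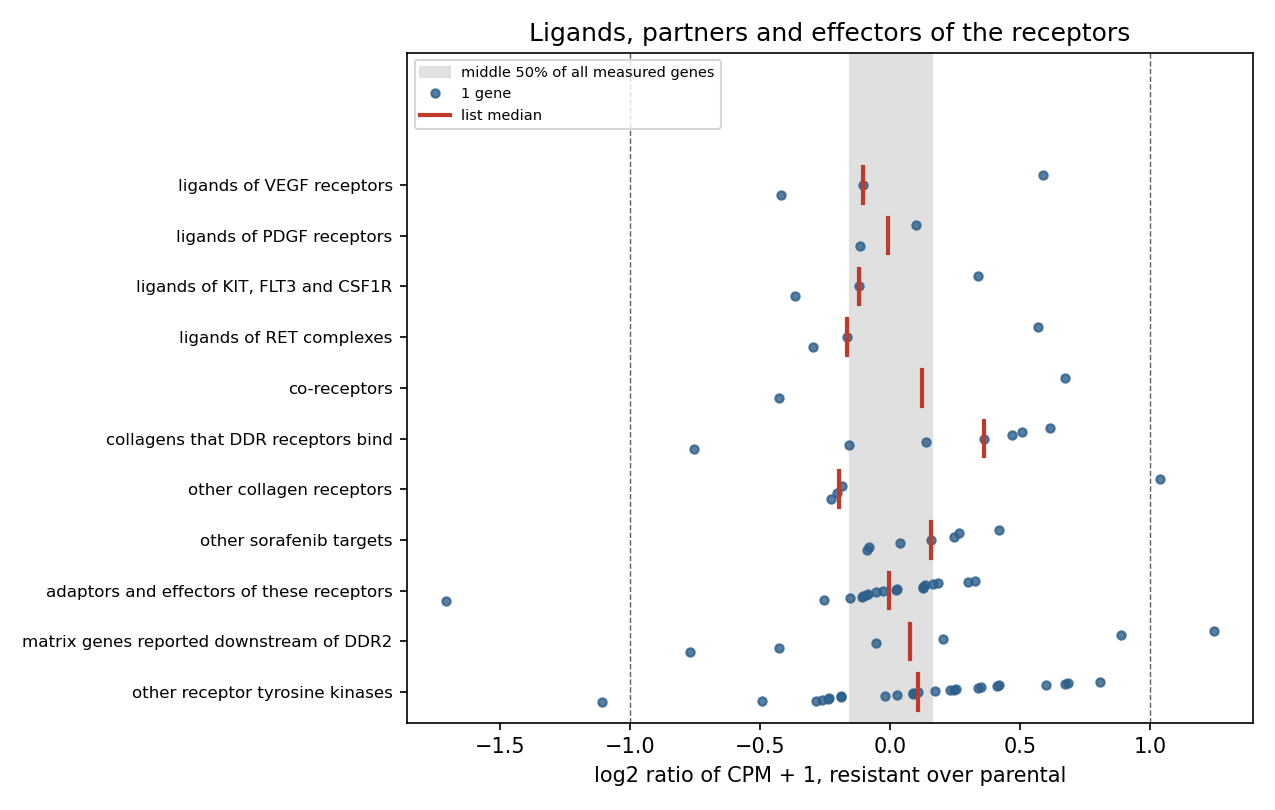
Log2 ratio of CPM + 1, resistant over parental (x axis), for the measured genes (blue points) of each list of ligands, partners, effectors and other receptor kinases (rows); red bars are list medians, the grey band holds the middle 50% of all measured genes and dashed lines mark the size rule. ITGA2 and RUNX2 lie above the upper line, GRB2 and EPHA10 below the lower one, and the collagen median lies at 0.36.

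Markers of the cells in which the silent receptors are typical were low or at 0, with exceptions. Of 10 endothelial markers 5 were measured, 3 with a positive and 2 with a negative log2 ratio, and the list summed to 352 counts in the resistant and 298 in the parental library. CLDN5, EMCN and TIE1 had 0 counts in both libraries, PECAM1 had 7 in the resistant and 8 in the parental library, and the summed level was 21.0 CPM in the resistant and 16.4 CPM in the parental library. EGFL7, a gene of a factor that endothelial cells secrete, held most of these counts, with 210 in the resistant and 193 in the parental library (1.18-fold, 0.963 to 1.44). ERG, an endothelial transcription factor gene, had 11 counts in the resistant and 19 in the parental library (0.626-fold, 0.269 to 1.38), and ESAM had 30 in the resistant and 36 in the parental library (0.901-fold). CDH5, the vascular cadherin gene, was past the size rule with 72 counts in the resistant and 20 in the parental library (3.89-fold, 2.34 to 6.74). None of 8 markers of blood and mast cells was measured, and they summed to 19 counts in the resistant and 10 in the parental library.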

How the data were processed

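Messenger RNA was sequenced from 1 resistant and 1 parental culture, grouped by their title and genotype labels. The authors deposited 3 tables with whole-number counts per gene, not normalized, and with FPKM, whose gene length the sources do not define. Per the submitters' processing notes the genome build was GRCh38 and the tools were StringTie 1.3.0, HISAT2 2.0.4 and bcl2fastq 2.19. Neither the annotation nor the strand setting of the counting is stated. The authors' own deposited comparison holds log2 fold changes with p-values and q-values from an unstated test on 1 library per group; no such p-value is used.

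Counts were scaled to CPM with edgeR 4.0.16 under R 4.3.3 (TMM factors of 0.997 for resistant and 1.00 for parental), and no model was fitted. Intervals of folds are exact binomial (Clopper-Pearson) ones on how the summed count divides between libraries; PCR copies are not independent molecules. Log2 ratios carry a pseudocount of 1 CPM and understate differences of low genes. Exon lengths, gene types and overlaps came from GENCODE 29, which held 50111 of the identifiers. The calculation was tested on simulated counts that carry counting error only. They hold no variation between cultures and no PCR copies, so the test says nothing on these. All members are named; each list gave up to 4 measured genes with the largest absolute log2 ratio and any past the size rule, and other names were chosen after their values were seen. Members, lists and motifs were chosen with earlier results of these data known.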

Additional observations from a re-analysis of the deposited data

How the results depend on the processing

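No paired analysis was possible because each group has 1 library, so that the groups share fewer than 2 replicate numbers, and no library could be left out. Under 12 alternative settings the log2 ratio of PDGFRB stayed between 0.19 and 0.26 and that of DDR1 between -0.14 and -0.11. The log2 ratio of DDR2 ranged up to 1.99 and fell out of the size rule with the deposited FPKM, where the pseudocount of 1 weighs more on a gene of about 1 FPKM: there it was 0.71 and 0 members were past the rule, as were 0 pathway genes higher, 1 lower, and of all genes 75 higher and 71 lower. With a pseudocount of 0.1, 431 genes were higher and 315 lower. With a size rule of 1.5-fold, 711 were higher and 559 lower (8.65% of measured genes), with 10 pathway genes higher and 4 lower. Without a filter on low values all 10 members counted as measured, and with a minimum of 5 CPM 1 pathway gene was lower. No alternative turned a direction among the members or the list genes past the size rule. Medians of short lists of ligands did change sign with the minimum level: those of RET complexes were at 0.57 and those of KIT, FLT3 and CSF1R at 0.11 with 5 CPM, and those of VEGF receptors at 0.02 with 0.5 CPM. Without the filter those of KIT, FLT3 and CSF1R were at 0.02 and those of PDGF receptors at 0.06. The median of adaptors and effectors was 0.02 with counts summed over exon-sharing genes, and that of co-receptors -0.04 in the deposited FPKM. Scaling moved no call of a member. Of the members 7 had at most 3 counts in both libraries, so for them depth is the limit.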
